A study of Mus musculus with 24 samples.

Results

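Adrenergic receptors bind noradrenaline and adrenaline, and the mRNA of 6 of them, Adrb1, Adra1a, Adra1b, Adra1d, Adra2a and Adra2c, was followed in the medial prefrontal cortex (mPFC) of 24 mice. They were taken by gene symbol from a table of 15456 genes, and each symbol had 1 row. The animals were male BALB/c mice (OlaHsd substrain, per the study's methods) of 11 weeks, with 6 mice in each of 4 groups and 1 RNA-seq library per mouse. The control group was given PBS. The duloxetine group was injected daily with duloxetine, a drug that blocks the reuptake of serotonin and noradrenaline, at 10 mg per kg for at least 21 days. The *R. flavefaciens* group was gavaged with live cells of *Ruminococcus flavefaciens*, an anaerobic bacterium of the gut, and the fourth group received both. Per the study's methods, PBS was given by the same route where a treatment was left out, and animals were housed in groups. The recovered reads, which stand for depth, ranged from 12811413 to 15607343 per mouse with a median of 14455107.

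In the cortex, noradrenaline is released by fibers of the locus coeruleus. Beta receptors couple to Gs and raise cAMP, alpha-1 receptors couple to Gq and phospholipase C, and alpha-2 receptors couple to Gi and lower cAMP. Alpha-2 receptors also sit on noradrenergic terminals, where they restrain release. Long treatment with antidepressants that block noradrenaline reuptake is known for lowering the density of beta receptors in rodent cortex. The mRNA measured here comes from cells whose bodies lie in the tissue, and in bulk tissue fewer cells of a type and less RNA per cell cannot be told apart.

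Of the 6 genes, Adrb1 had the difference with the smallest p-value (given below), and its upstream sequence is shown for that reason. The 250 bases before the start of the RefSeq transcript, at chr19:56721867-56722116 on the plus strand of GRCm38.p6, are rich in G and C (74.0%, against a median of 52.4% over all promoters of the same length in RefSeq). Capitals mark TGACG, the core of the cAMP response element, through which CREB can act on genes.

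Adrb1 upstream: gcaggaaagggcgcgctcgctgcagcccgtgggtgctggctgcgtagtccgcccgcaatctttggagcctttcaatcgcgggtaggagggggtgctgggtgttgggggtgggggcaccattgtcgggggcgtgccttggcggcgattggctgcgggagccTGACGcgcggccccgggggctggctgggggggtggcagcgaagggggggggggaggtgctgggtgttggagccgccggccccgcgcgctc

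The core, sought on both strands, was found 1 time in this window and 1 time in that of Adra2a, was not found in those of Adra1b and Adra2c, and 17.8% of 32851 mouse promoters hold it. The full element TGACGTCA was not found in the windows of the 4 receptors with an entry (Adrb1, Adra1b, Adra2a and Adra2c), and 1.55% of all promoters hold it. The full element contains the core. Adra1a and Adra1d had no entry. The windows follow RefSeq starts, which can differ from the gene positions given below. That of Adra2c, 35278316 to 35278565, lies almost wholly past the gene start of 35278319. That of Adra2a, 54045009 to 54045258, runs past the start of 54045182 and lies inside the GENCODE vM21 gene, which starts at 54044151. A window of Adra1b, 43836490 to 43836739, also lies inside its gene. A match of letters describes the sequence and was not tested as a binding site.

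The receptors were expressed at levels that differed by the length used for them. Per kb of the union of exons, Adra1d, an alpha-1 receptor, was the highest of the 6, with 428.8 ± 88.6 normalized counts per kb (SD, n = 24 mice). Adra1b followed with 183.3 ± 24.4 and Adrb1, the beta-1 receptor, with 168.6 ± 29.4 normalized counts per kb (SD, n = 24). The order of Adra1b and Adrb1 differed between groups. Adra1b was above Adrb1 in 15 of 24 mice, namely in all 12 mice given duloxetine, 2 of 6 controls and 1 of 6 *R. flavefaciens* treated mice. Adra2c, an alpha-2 receptor, had 94.6 ± 14.3 normalized counts per kb (SD, n = 24) and was below Adrb1 in all 24 mice. Adra2a, which is the other alpha-2 receptor measured, and Adra1a were the lowest, with 36.4 ± 6.27 and 33.7 ± 6.99 normalized counts per kb (SD, n = 24). Their order did not hold across mice, with Adra2a above in 13 of 24. With the longest transcript in place of the exon union, Adra1a rose to 68.7 normalized counts per kb and stood above Adra2a in 22 of 24 mice. With the span given in the table for Adrb1 and Adra2a, whose annotation is longer in GENCODE vM21, Adrb1 had 229.0 normalized counts per kb and was above Adra1b in 21 of 24 mice. Adrb3, the beta-3 receptor, was not among the 6 and was low, with a median of 30.7 normalized counts over 24 mice.

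**Figure D1:**
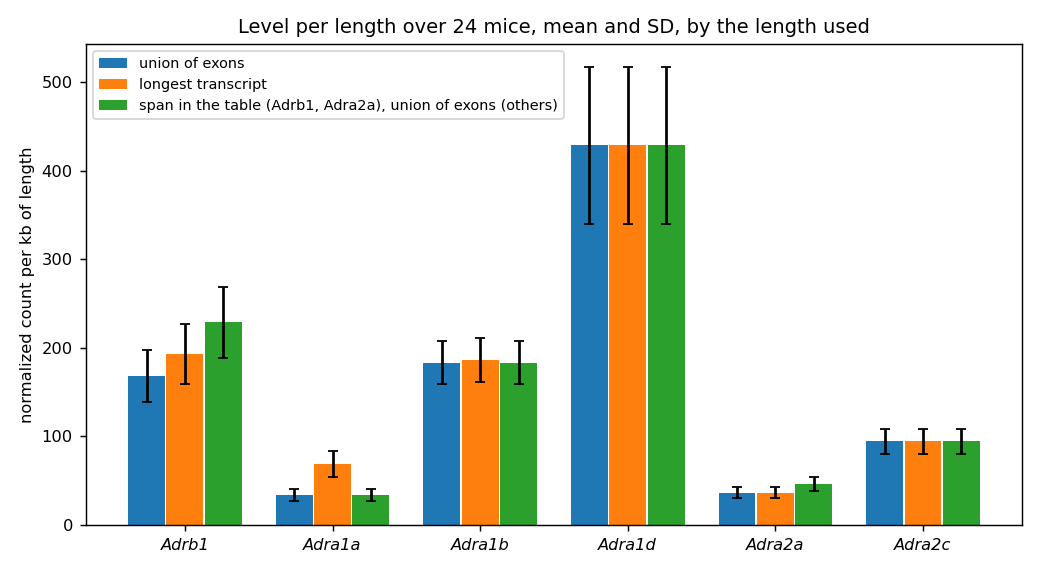
Level of each receptor in normalized counts per kb of length, as the mean over 24 mice with the SD as error bar, for 3 definitions of length. Adra1d is the highest under each, at 428.8, and the order of Adra1a and Adra2a and of Adrb1 and Adra1b depends on the length used.

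Duloxetine treated mice had less Adrb1 mRNA, with or without the bacterium. Adrb1 (ENSMUSG00000035283.4, chromosome 19, 56722372 to 56724862, plus strand of GRCm38) ranged from 592.17 to 747.96 normalized counts in control mice, with a median of 642.4. In the duloxetine group it ranged from 470.36 to 533.2, with a median of 497.0. All 6 duloxetine mice were below all 6 controls, and the spread was smaller with the drug, with a coefficient of variation of 4.58% against 9.93%. In *R. flavefaciens* treated mice Adrb1 ranged from 595.05 to 715.83 normalized counts, with a median of 651.6. In mice given both treatments it ranged from 410.54 to 583.48, with a median of 441.0. This last group was the most spread out, because 4 of its mice lay between 410.54 and 453.85 and mice 12_3 and 12_4 lay at 554.62 and 583.48.

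**Figure D2:**
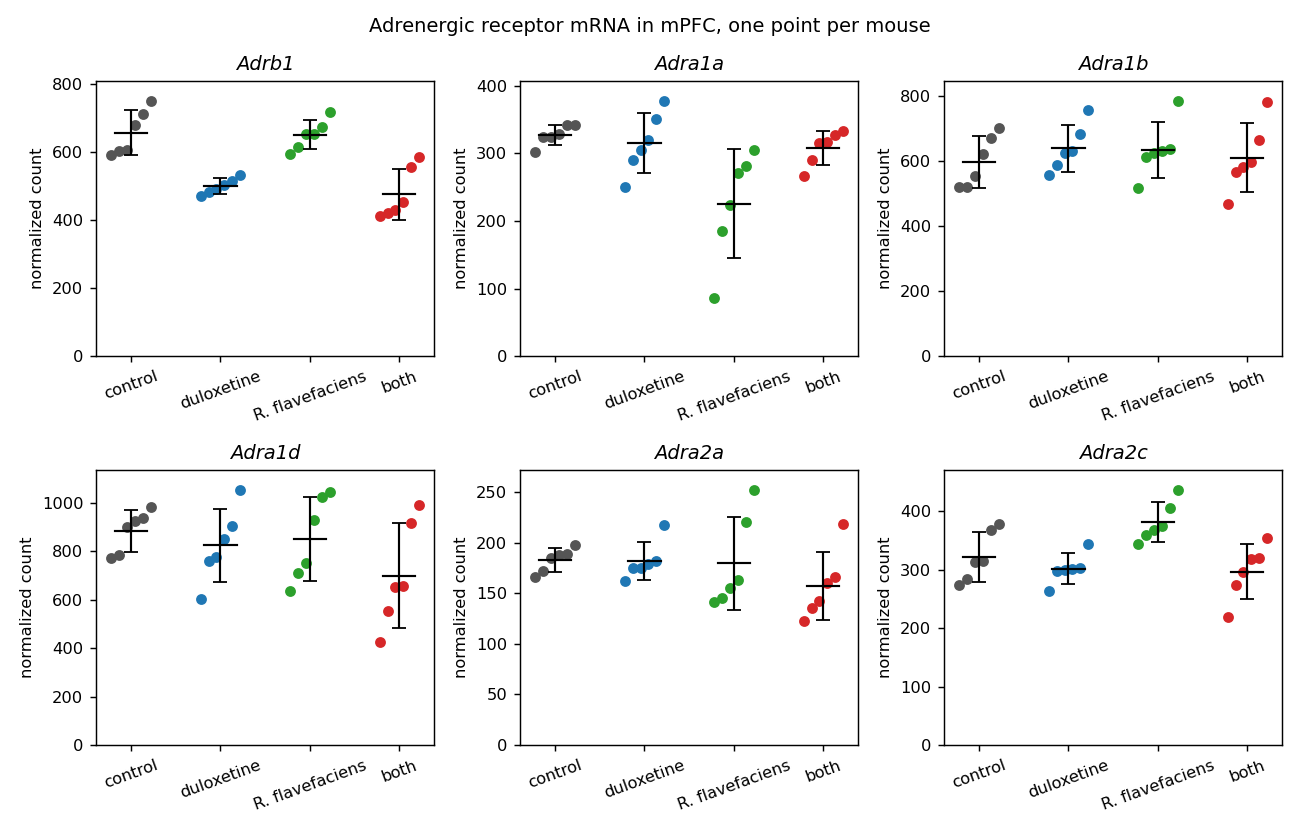
Normalized counts of the 6 receptors, with 1 point per mouse, sorted within each group of 6, and the mean and SD as black bars. For Adrb1 the highest of the 12 mice given duloxetine (583.48) lies below the lowest of the 12 others (592.17), whereas the groups of the other receptors overlap.

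Averaged over both bacterial conditions, Adrb1 fell by 25.6% with duloxetine (log2 fold change -0.43, standard error 0.055, 95% confidence interval -0.54 to -0.31). Its limma p-value was the smallest of 14974 tested genes (adjusted p = 0.000398, n = 12 mice per side). It was the single receptor of the 6 that passed the threshold in this comparison, and 0.534% of all tested genes passed it as lower and 1.03% in either direction. These were 74 genes higher and 80 lower, or 97 and 47 after rescaling to the 75th percentile and 75 and 203 with a trend on transcript length removed, and with 1 mouse left out their number ranged from 46 (without 3_1) to 260 (without 12_4). All 12 duloxetine mice were below all 12 other mice. Adrb1 was the single gene of 14974 that was lower without overlap (0.00668%), and also when values were rescaled to the 75th percentile or quantile normalized. On values scaled to the total of recovered reads Aimp2 was lower without overlap as well. In the other direction, 1 gene was higher without overlap on the normalized counts, and 0 were on the other scales. The gap is narrow, from 583.48 to 592.17 normalized counts. Neither edge of it is set by 3 mice that were left out in an alternative fit, 8_4 and 11_4, which had the highest summed striatal markers of the 24, and 9_3, which had the lowest slope of expression on transcript length (both described below).

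Taken separately, the bacterial conditions gave values of similar size. In mice given both, Adrb1 was 27.5% lower than in *R. flavefaciens* treated mice (log2 fold change -0.46, limma adjusted p = 0.007). All 6 mice given both were below all 6 of the other group. With only these 2 groups in the fit, the adjusted p was 0.0666. In this comparison 1.16% of tested genes were called lower, and 0.828% were lower without overlap, as Adrb1 was. The number called in either direction was 334, against 0 with only these 2 groups in the fit, and it ranged from 47 (without 11_3) to 577 (without 8_4) with 1 mouse left out. From controls to mice given both, Adrb1 fell by 27.9% (log2 fold change -0.47, limma adjusted p = 0.00656), where 0.0467% of genes were called lower and 1.16% were lower without overlap. The number called there in either direction was 15, and from 5 (without 2_1) to 154 (without 12_4) with 1 mouse left out. The value for duloxetine alone against controls was -0.39 (limma adjusted p = 0.464). No gene of the table was called there (0.0%). Of 14974 tested genes, 573 had an unadjusted p under 0.05, a smaller share than 0.05, and 0.167% were lower without overlap. In that comparison DESeq2 on the recovered reads called Adrb1 alone (0.00668% of genes, adjusted p = 0.0197), and edgeR called 0 genes. These comparisons share mice and are not independent of each other.

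No difference in Adrb1 was detectable between mice with and without the bacterium. *R. flavefaciens* treated mice differed from controls by -0.0098 on the log2 scale (95% confidence interval -0.17 to 0.15), and mice given both differed from duloxetine mice by -0.083 (95% confidence interval -0.24 to 0.076). Limma gave adjusted p-values of 0.963 and 0.862. The interaction, that is, the effect of duloxetine with the bacterium minus that without it, was -0.074 for Adrb1 (95% confidence interval -0.30 to 0.15, limma adjusted p = 0.873). Its interval includes both no difference and a fall up to 0.30 larger with the bacterium.

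**Figure D3:**
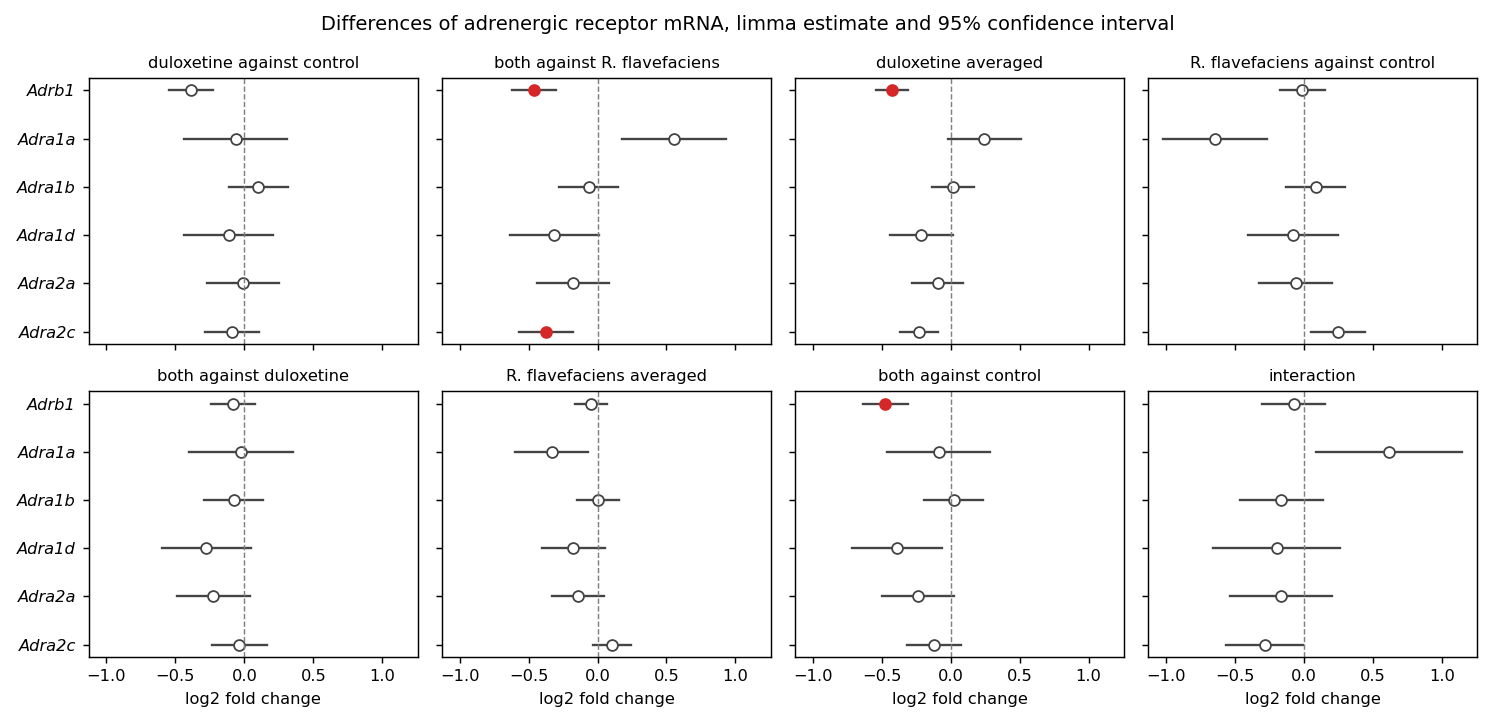
Log2 fold change of each receptor in 8 comparisons, with the 95% confidence interval from limma; filled red points have an adjusted p under 0.05. Adrb1 is called in 3 of the 8 panels and Adra2c in 1, and no alpha-1 receptor is called.

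Adra2c was the other receptor that passed the threshold. Adra2c (ENSMUSG00000045318.6, chromosome 5, 35278319 to 35281763, plus strand of GRCm38) ranged from 343.62 to 436.53 normalized counts in *R. flavefaciens* treated mice, with a median of 371.4. In mice given both it ranged from 219.53 to 354.07, with a median of 307.3. All 6 of the latter were below the mean of the former, but 1 mouse, 11_4, overlapped. Its log2 fold change between these groups was -0.37 (standard error 0.096, limma adjusted p = 0.0385, rank 237 of 14974), so that 2 of the 6 receptors were called lower in this comparison, where 1.16% of all tested genes were. In control mice it ranged from 274.23 to 379.3 with a median of 314.1, and in duloxetine mice from 262.93 to 344.96 with a median of 301.0. The *R. flavefaciens* group was the high one of the 4. Its difference from controls was 0.25 (limma adjusted p = 0.156), and that of duloxetine mice from controls was -0.088 (limma adjusted p = 1.0). Averaged over the bacterium, Adra2c was at -0.23 with duloxetine (limma adjusted p = 0.0929), with 11 of 12 mice below the mean of the mice without it. The interaction was -0.28 (limma adjusted p = 0.647). The call in the mice given both against *R. flavefaciens* was missed with only these 2 groups in the fit (adjusted p = 0.142), after rescaling to the 75th percentile (adjusted p = 0.0524), without the 3 mice above (adjusted p = 0.0689), and when any of 6 mice (7_2, 9_1, 9_3, 10_2, 11_3 and 12_2) was left out, with a highest adjusted p of 0.117 without 11_3.

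Adra1a (ENSMUSG00000045875.13, chromosome 14, 66635251 to 66771168, plus strand of GRCm38) had its lowest levels in *R. flavefaciens* treated mice. It ranged there from 86.49 to 305.66 normalized counts with a median of 247.4, and in controls from 301.85 to 342.78 with a median of 326.9. With both treatments it ranged from 267.24 to 332.74 with a median of 316.6, and with duloxetine alone from 250.34 to 376.9 with a median of 312.6. Of the *R. flavefaciens* treated mice, 5 were below every control and mouse 9_3 was by far the lowest. The log2 fold change against controls was -0.64 (standard error 0.18, limma adjusted p = 0.0806), in a comparison with 0.0267% of genes called. These were 4 genes, against 616 without mouse 9_2, 427 without 8_3, 239 without 9_1 and 0 without 9_3 or any of the controls 1_1, 2_2 and 2_3. DESeq2 called Adra1a (log2 fold change -0.54, adjusted p = 0.0331) together with 1.67% of all genes as lower when fitted on the 4 groups, and did not call it on only these 2 groups (log2 fold change -0.54, adjusted p = 0.195). With mouse 9_3 left out, the value was -0.39 (limma adjusted p = 0.16), and without 8_4, 9_3 and 11_4 it was -0.28 (limma adjusted p = 0.421). Between mice given both and *R. flavefaciens* treated mice Adra1a was at 0.55 (limma adjusted p = 0.0985), and at 0.30 without mouse 9_3. The interaction was 0.62 (standard error 0.26, limma adjusted p = 0.639), and 0.36 without mouse 9_3 (limma adjusted p = 0.841).

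The level of Adra1a moved with a trend of expression on transcript length, which was measured as the slope, over genes, of each mouse's log2 deviation from the gene mean on log2 transcript length. This slope was lowest in mouse 9_3, at -0.178. It was lower in *R. flavefaciens* treated mice (mean -0.0418) than in controls (mean 0.0353, n = 6 mice per group, p = 0.00216 by a two-sided exact permutation test and 0.0408 after adjustment for 66 such tests). Its mean was 0.0133 in duloxetine mice and -0.00685 in mice given both, whose median of Adra1a was 316.6 normalized counts against 326.9 in controls. After the group means were taken off, Adra1a followed the slope over 24 mice (Pearson r = 0.907, permutation p = 0.00078, adjusted p = 0.0097 over 25 relations; Spearman rho = 0.724, permutation p = 0.00095, adjusted p = 0.024). With 2 mice, 9_2 and 9_3, left out, r was 0.74. The corresponding r of the other 5 receptors lay between -0.312 and 0.259, and none passed after adjustment. With the length trend removed from every gene, the log2 fold change of Adra1a was -0.62 (limma adjusted p = 0.205). The part of the length trend in the level of Adra1a was not tested further.

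**Figure D4:**
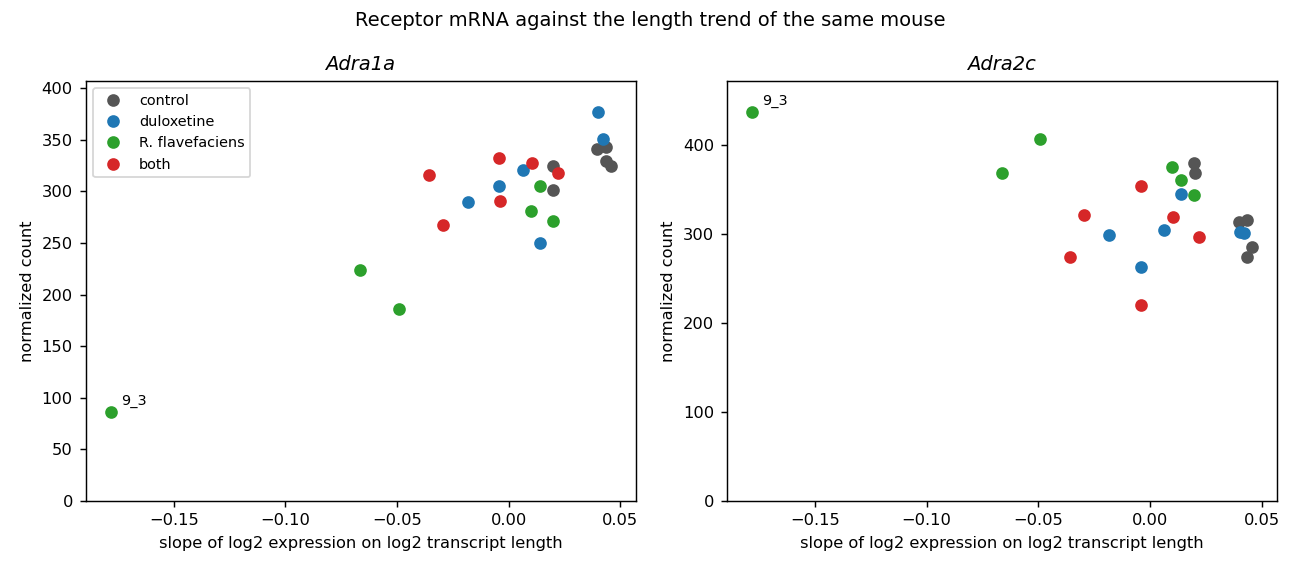
Normalized counts of Adra1a (left) and Adra2c (right) in each of 24 mice against the slope of log2 expression on log2 transcript length in the same mouse, colored by group. Adra1a is low where the slope is low, and mouse 9_3 stands at the far left of both panels.

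Adra1d and Adra1b, the remaining alpha-1 receptors, passed the threshold in none of the 8 comparisons. Adra1d (ENSMUSG00000027335.9, chromosome 2, 131545850 to 131562283, minus strand of GRCm38) ranged from 773.86 to 980.95 normalized counts in controls and from 427.25 to 992.2 in mice given both, with medians of 913.4 and 653.7. The group given both was the most spread out, with a coefficient of variation of 30.9% against 9.71%, and 4 of its mice were below every control. The log2 fold change was -0.39 (standard error 0.16, limma adjusted p = 0.227). An antisense gene, Gm14285, shares 147 bases with Adra1d, and since the use of strand in counting is not given in the sources used here, their reads cannot be told apart. Adra1b (ENSMUSG00000050541.14, chromosome 11, 43774606 to 43901210, minus strand of GRCm38) had the lowest coefficient of variation of the 6 over all 24 mice pooled, 13.3%. Its group means ran from 597.3 to 639.1 normalized counts. Within each group another receptor varied less. The coefficient of Adra1b was 13.3% in controls, against 4.54% for Adra1a, and 11.3% with duloxetine, against 4.58% for Adrb1. It was 13.5% with *R. flavefaciens*, against 6.57% for Adrb1, and 17.2% with both, against 8.06% for Adra1a. The log2 fold changes of Adra1b lay between -0.16, for the interaction, and 0.10, for duloxetine against controls.

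Adra2a (ENSMUSG00000033717.5, chromosome 19, 54045182 to 54048982, plus strand of GRCm38), the alpha-2 receptor best known for the autoreceptor role, was not called in any comparison. It ranged from 165.82 to 197.74 normalized counts in controls and from 162.62 to 217.72 in duloxetine mice, with medians of 186.8 and 177.3. With *R. flavefaciens* alone it ranged from 141.0 to 252.08 and with both from 122.97 to 218.1, with medians of 159.6 and 151.4. The highest mice of these last groups were 8_4 and 11_4, which were also the highest of their groups for the sum of 6 striatal markers, Drd1, Drd2, Adora2a, Ppp1r1b and Rgs9 among them. Their summed striatal markers were 4719.87 and 2747.83 normalized counts, against medians of 1365 and 1493 in their groups. Of all genes, Drd1 and Rgs9, both abundant in striatum, had the highest correlation with Adra2a after group means were taken off (r = 0.861 and 0.848, n = 24 mice). The largest difference of Adra2a was -0.24, in mice given both against controls (limma adjusted p = 0.345).

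Among themselves the receptors were weakly tied. After the group means were taken off, 2 of 15 pairs passed by Pearson r after adjustment over 25 relations. Adra1a and Adra2c ran opposite to each other (Pearson r = -0.449, permutation p = 0.0005, adjusted p = 0.0097; Spearman rho = -0.563, permutation p = 0.0021, adjusted p = 0.026; r = -0.44 without 9_1 and 9_3). Adra1b and Adra2a did so as well (Pearson r = -0.558, permutation p = 0.011, adjusted p = 0.047; Spearman rho = -0.51, permutation p = 0.017, adjusted p = 0.069; r = -0.456 without 10_2 and 11_4). Adra1b and Adra1d passed by rank alone (Pearson r = 0.514, permutation p = 0.026, adjusted p = 0.082; Spearman rho = 0.606, permutation p = 0.0043, adjusted p = 0.03). Adrb1 had its highest r with Adra1d (Pearson r = 0.555, permutation p = 0.025, adjusted p = 0.082; Spearman rho = 0.459, permutation p = 0.043, adjusted p = 0.12), which dropped to 0.325 without mice 12_3 and 12_4.

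Over the 24 mice, the genes whose log2 values followed Adrb1 most closely were Otud1 (r = 0.902), Mycn, Cry2 and Rbm24 (r = 0.872 each) and Spry2 (r = 0.844). Otud1 encodes a deubiquitinase, Cry2 a repressor of the circadian clock and Spry2 an inhibitor of receptor tyrosine kinase signaling. The lowest correlations were those of Arrdc2 (r = -0.847), mt-Nd5 (r = -0.829), Galnt15 (r = -0.822), mt-Tl1 (r = -0.816) and Fam214a (r = -0.811). The mitochondrial genome encodes 2 of these, mt-Nd5 and mt-Tl1. Since Adrb1 differs between mice with and without duloxetine, these values hold the group difference as well, and 2 of the 5 highest genes (Otud1 and Rbm24) and 0 of the 5 lowest stayed among the 5 highest or lowest after group means were taken off. Rbm24 was then the first, at r = 0.743, whereas mt-Nd5 and mt-Tl1 dropped to ranks 339 and 301 from the lowest.

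Genes of noradrenaline signaling were counted in 12 lists with 99 genes, of which 95 were tested. With duloxetine averaged over the bacterium, 0 of the 95 were called higher and 4 lower, where 0.534% of all tested genes were called lower. Their median log2 fold change was -0.028 against 0.0027 over all tested genes. All 4 were among the 10 CREB-responsive genes, which cAMP and other signals of neuronal activity induce. In that list the median was -0.36 and 10 of 10 were below 0. Fos, a transcription factor of the AP-1 family, had a median of 492.2 normalized counts in controls, 302.2 with duloxetine, 548.5 with *R. flavefaciens* and 337.3 with both, and its log2 fold change was -0.66 (limma adjusted p = 0.0387). Nr4a1, an orphan nuclear receptor, had medians of 1576, 1098, 1690 and 1047 normalized counts in the same order and fell by 0.64 on the log2 scale (limma adjusted p = 0.0134). Junb, which pairs with Fos, was lower by 0.53 (log2 fold change -0.53, limma adjusted p = 0.0136) and Egr1, a zinc finger factor, by 0.56 (log2 fold change -0.56, limma adjusted p = 0.0302). The 6 others, Nr4a2, Nr4a3, Sik1, Per1, Dusp1 and Crem, had values from -0.36 to -0.14 and were not called. In mice given both against *R. flavefaciens* treated mice, Junb (log2 fold change -0.59, limma adjusted p = 0.0356) and Nr4a1 (-0.66, limma adjusted p = 0.0489) were called, 2 of 95 where 1.16% of all genes were called lower, and neither is called with only these 2 groups in the fit. No signaling gene was called there without any one of 8 mice (8_3, 9_1, 9_3, 10_2, 11_3, 11_4, 12_2 and 12_3), nor without the 3 mice above. For duloxetine averaged over the bacterium, 2 were called in place of 4 without any one of 2_1, 2_3, 3_1, 5_3, 9_1 and 11_3, and 7 without 12_4.

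**Figure D5:**
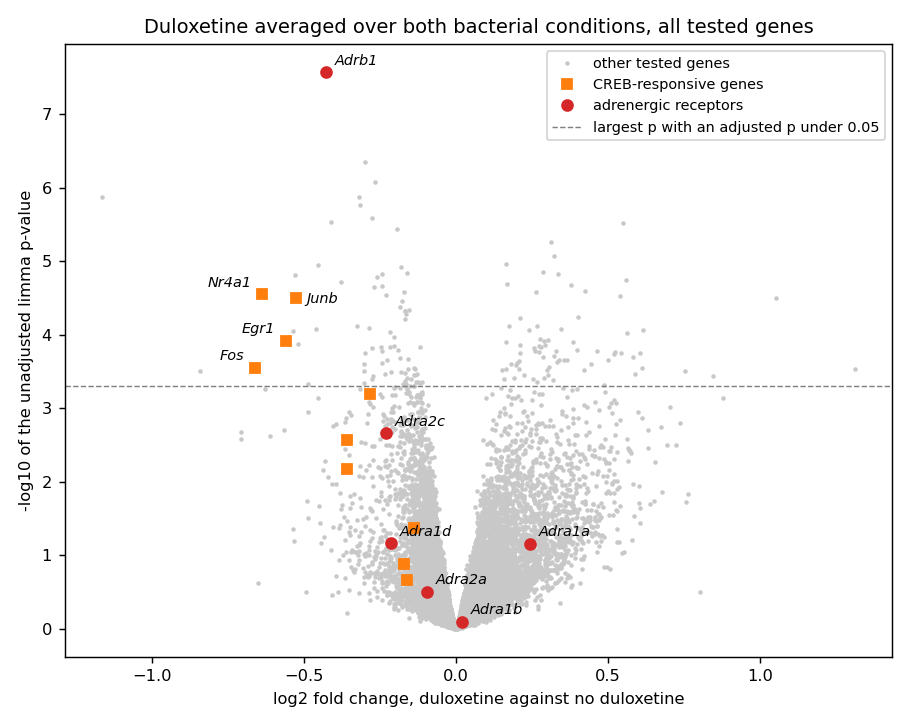
Log2 fold change of 14974 genes with duloxetine averaged over both bacterial conditions, against the -log10 of the unadjusted limma p-value. Adrb1 lies at the top, 4 labelled CREB-responsive genes lie above the dashed line, and the other 5 receptors lie below it.

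Within groups, Adrb1 followed Nr4a1 and Junb of these 4 genes by both measures of correlation and Egr1 by Pearson r alone. Only these 4 were correlated with Adrb1, because they were called for duloxetine, and the rest of their list was not. Other genes were as close to Adrb1 after group means were taken off. Mycn, at r = 0.66, ranked 19 from the highest and Spry2, at r = 0.529, ranked 219. Whether the 4 genes stand out among all tested genes was not tested. It ran with Nr4a1 (Pearson r = 0.656, permutation p = 0.0026, adjusted p = 0.022; Spearman rho = 0.594, permutation p = 0.006, adjusted p = 0.03; r = 0.59 without mice 12_3 and 12_4). It also ran with Junb (Pearson r = 0.588, permutation p = 0.0067, adjusted p = 0.042; Spearman rho = 0.594, permutation p = 0.0055, adjusted p = 0.03; r = 0.488 without the same mice). With Egr1 the Pearson r was 0.628 (permutation p = 0.0098, adjusted p = 0.047) and the Spearman rho 0.531 (permutation p = 0.021, adjusted p = 0.074), with r = 0.488 without these mice. With Fos the Pearson r of 0.522 (permutation p = 0.046, adjusted p = 0.12) and the Spearman rho of 0.399 (permutation p = 0.073, adjusted p = 0.17) did not pass after adjustment, and r was 0.401 without these mice.

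No gene of the other 11 lists was called for duloxetine. The genes with the smallest p-value of 10 of these lists were Th, which makes the precursor of dopamine and noradrenaline (log2 fold change 0.18), the breakdown enzyme Maoa (0.14), the G protein subunit Gna11 (-0.057), the cyclase Adcy3 (-0.14), the kinase inhibitor Pkig (-0.082), the phosphodiesterase Pde3b (0.18), Plcb2 (0.38), the receptor kinase Grk6 (-0.061), Rgs14 (-0.099) and the scaffold Gipc1 (-0.075), with limma adjusted p-values from 0.132 to 0.669. With *R. flavefaciens* averaged over duloxetine, 0 of the 6 receptors and 0 of the 95 genes were called, in a comparison with 0.0267% of genes called (4 genes, and from 1 to 135 with 1 mouse left out, the latter without 8_3). For mice given both against duloxetine mice no gene of the table was called (0.0%, 883 with an unadjusted p under 0.05; DESeq2 called 1 and edgeR 0), and for the interaction also none (0.0%, 1128 with an unadjusted p under 0.05; 0 by DESeq2 and by edgeR). Serotonin, dopamine and muscarinic receptors were counted as well, with 17 tested genes. Of 10 serotonin and 3 dopamine receptors none was called for duloxetine, and of 4 muscarinic receptors Chrm4 was, with a median of 342.5 normalized counts in controls and 261.3 with duloxetine (averaged log2 fold change -0.38, limma adjusted p = 0.0123). This is 1 of 17, where 0.534% of all genes were called lower.

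The tissue carried the markers of cortex, and all 6 markers of each of excitatory neurons, inhibitory neurons, astrocytes, oligodendrocytes, microglia, and endothelial cells with pericytes were measured. The most abundant genes were Slc17a7 and Gad1 of excitatory and inhibitory neurons, Slc1a3 of astrocytes, Rgs5 of endothelial cells with pericytes, and Ppp1r1b, Kl and Hbb-bs of striatum, choroid plexus and blood. The 4 markers of noradrenergic cell bodies were not analysed here. Drd1 and Drd2 stand both in the dopamine receptor list and among the striatal markers. Averaged over the bacterium, no summed marker list differed between mice with and without duloxetine after adjustment over 66 tests. Depth did, with a mean of 14640000 recovered reads with duloxetine against 13770000 without (p = 0.00082 by a two-sided permutation test, 0.0408 after adjustment, n = 12 mice per side). The part of depth in the level of Adrb1 was not tested beyond the scalings above. With *R. flavefaciens*, the summed microglia markers were 3177 against 2764 normalized counts in controls (p = 0.00649 by the exact permutation test, 0.0476 after adjustment, n = 6 per group) and the blood markers 598.4 against 349.0 (p = 0.00433 by the exact permutation test, 0.0408 after adjustment, n = 6 per group). Averaged over duloxetine, the summed inhibitory neuron markers were 10690 with the bacterium against 10030 normalized counts without (p = 0.00428 by a two-sided permutation test, 0.0408 after adjustment, n = 12 mice per side). In the group given both, mice 12_3 and 12_4, the highest for Adrb1, had the lowest sums for oligodendrocytes (8476.02 and 6572.63 normalized counts) and microglia (2986.98 and 2763.01). The other mice of that group had at least 13192.02 and 3191.95. The sums for astrocytes and for endothelial cells with pericytes were also lowest in 12_3 and 12_4, whereas those for excitatory neurons and blood were not. The part of cell types in the values of Adrb1, Adra1a and Adra2c was not tested. The first number in the name of a mouse was never shared between groups, and each group held 2 or 3 of these numbers. What it stands for is not given in the labels, and with it as a random block (estimated correlation -0.0451) no call of a receptor changed, although more genes of the table were called (221 in place of 4 for *R. flavefaciens* against controls, 59 in place of 15 for both against controls, 533 in place of 334 for both against *R. flavefaciens* and 255 in place of 154 for duloxetine averaged).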

How the data were processed

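The authors made poly(A) libraries from mPFC RNA of 24 mice and sequenced them on a HiSeq 2500. Per the labels, TopHat2 2.1.0, Bowtie2 2.2.6 and DESeq2 1.18.1 were used. The counting program, the use of strand and the filter on genes are not given in the sources used here. The labels name mm9 and the study's methods GRCm38, and 14253 of 15438 matched gene IDs had the position of GENCODE vM21, so positions are given as GRCm38. The deposited signal values are normalized counts, for which the authors name DESeq2. Their methods also speak of a fixed number of sequences per sample, but the sums per mouse ranged from 13536601 to 14568454. In every mouse at least 99.97 percent of the values were whole multiples of a single step (tolerance 0.0051). The step was read from the values as what 1 read is worth, and division by it returned reads.

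Log2(value + 1) was fitted with limma 3.58.1 in R 4.3.3 (trended prior, 14974 genes with a mean of at least 10, the 4 groups together). Fold changes are on that scale. Benjamini-Hochberg adjustment was made over all tested genes of each of 8 comparisons, and an adjusted two-sided p under 0.05 was a call. Values per mouse were compared by exact permutation (924 groupings of 6 and 6, smallest p 0.00216) or by 100000 permutations. The labels do not say how many cages or batches the mice came from, so p-values measure the spread between these mice.

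The members and lists were chosen with earlier results of these data known. Named were the 6 receptors, list genes that were called or otherwise had the smallest p for duloxetine, the 5 genes highest and the 5 lowest in correlation with Adrb1 over 24 mice, and the most abundant gene of each marker list; a few genes that this rule names are not reported here. Adrb3, Aimp2, Drd1, Rgs9, Gm14285 and genes in the sensitivity results were named after their values were seen. Alternatives changed the pseudocount (0.1), the filter (none, or a mean of 50), the mice fitted (only the groups compared, or 1 mouse left out), the scaling (quantiles, 75th percentile), the threshold (0.1) and the tool (DESeq2 1.42.0 and edgeR 4.0.16 on recovered reads), took the first label number as random block, or removed a loess trend on length (span 0.3). The fit without 3 mice, the gene span as length and the overlap on other scales were chosen after seeing the data. The scripts were tested on simulated data. Promoter sequences came from RefSeq (GRCm38.p6).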

Additional observations from a re-analysis of the deposited data

Results flagged for a closer look

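In groups of 6 mice, the highest or lowest mouse was compared with its nearest neighbor relative to the range of the group by Dixon's test at the 95% level, for the 6 receptors, depth, the length slope and the summed marker lists. Chance gives such a gap in about 1 of 20 groups, and 7 of 68 groups had one. Adra2a in the duloxetine group had its highest mouse, 6_3, at 217.72 normalized counts, apart from the other 5. The same mouse had the highest summed blood markers of its group, at 983.59 normalized counts. In the *R. flavefaciens* group mouse 8_4 was highest for blood markers, at 988.27, and for striatal markers, at 4719.87 normalized counts. Mouse 11_4 was highest for striatal markers in the group given both, at 2747.83, and mouse 2_3 in the controls, at 1937.26. Control mouse 2_1 had 14446451 recovered reads, above the other controls. Adrb1 had no such mouse in any group.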

How the results depend on the processing

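The fall of Adrb1 with duloxetine averaged over the bacterium passed the threshold in all 11 alternatives (log2 fold change -0.44 to -0.41, adjusted p from 3.39e-09 to 0.00754) and with each of 24 mice left out (-0.457 to -0.406, highest adjusted p 0.00145). In mice given both against controls it also passed in all 13 alternatives, and against *R. flavefaciens* in 12 of 13, the exception being a fit of only these groups (-0.463, adjusted p = 0.0666). For duloxetine alone against controls Adrb1 passed in 2 of 13, both DESeq2 fits (-0.394, adjusted p = 0.0197, and -0.395 with only these groups, adjusted p = 1.99e-05), in which it was the 1 receptor called. Of *R. flavefaciens* against controls, 1 receptor, Adra1a, was called by DESeq2 on the 4 groups (not on only the groups compared) and at an adjusted p under 0.1. For both treatments against *R. flavefaciens*, 0 receptors were called with only these groups, and 1, Adrb1, after rescaling to the 75th percentile or without mice 8_4, 9_3 and 11_4. At an adjusted p under 0.1, 2 were called for duloxetine averaged, Adra2c and Adrb1, and for both against *R. flavefaciens* Adra1a was called higher (0.554, adjusted p = 0.0985). With 1 mouse left out, the receptors called ranged from 0 to 1 for *R. flavefaciens* against controls (Adra1a, without 8_3, 9_1 or 9_2) and from 1 to 2 for both against *R. flavefaciens*.

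Values near 0 changed sign. Adrb1 for *R. flavefaciens* against controls and Adra2a for duloxetine against controls were at 0.00541 and 0.00651 after rescaling to the 75th percentile. Adra1b was at -0.00455 for both against controls, -0.000145 for duloxetine averaged and -0.0044 for *R. flavefaciens* averaged with the length trend removed. Adra1d for *R. flavefaciens* against controls was at 0.0582 without the 3 mice. With 1 mouse left out, ranges that cross 0 were those of Adrb1 (-0.0383 to 0.029), Adra1d (-0.143 to 0.00112) and Adra2a (-0.164 to 0.00253) for *R. flavefaciens* against controls, Adra1a (-0.117 to 0.000305) and Adra2a (-0.0638 to 0.02) for duloxetine against controls, Adra1a (-0.0885 to 0.0292) and Adra2c (-0.0892 to 0.0482) for both against duloxetine, and Adra1b for both against controls (-0.0518 to 0.0953), both against *R. flavefaciens* (-0.137 to 0.0101), duloxetine averaged (-0.0182 to 0.0553) and *R. flavefaciens* averaged (-0.0335 to 0.04).

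Of the 95 signaling genes, DESeq2 with only the groups compared called 1 for duloxetine against controls (Egr1), 5 for both against controls and 1 for both against *R. flavefaciens* (Junb), where it called 0.14%, 4.66% and 1.47% of all tested genes. DESeq2 with 4 groups called 2 for *R. flavefaciens* against controls (Pde4b and Pde4d), 1 for both against controls (Adcy3), 1 for both against *R. flavefaciens* (Junb) and 1 for *R. flavefaciens* averaged, with 3.32%, 1.45%, 4.07% and 2.41% of all genes. At an adjusted p under 0.1 the counts were 2, 1, 6 and 1 for the same comparisons, the last being Rgs10, with 3.87%, 0.841%, 5.62% and 1.34% of all genes. For both against controls, limma with only these groups called 4 (1.31% of all genes), and without the 3 mice 1 (Adcy9, 0.841% of all genes). For both against *R. flavefaciens*, 0 were called with only these groups or without the 3 mice, and 1, Junb, after rescaling to the 75th percentile or by edgeR. With 1 mouse left out, they ranged from 0 to 2 for *R. flavefaciens* against controls, from 0 to 4 for both against controls, from 0 to 7 for both against *R. flavefaciens* and from 2 to 7 for duloxetine averaged, with 7 in each case without 12_4. Over all genes, limma and DESeq2 called 4 and 497 for *R. flavefaciens* against controls, 15 and 217 for both against controls, 334 and 610 for both against *R. flavefaciens*, 154 and 317 for duloxetine averaged and 4 and 361 for *R. flavefaciens* averaged. The split for both against *R. flavefaciens* was 160 higher and 174 lower, or 186 and 106 after rescaling to the 75th percentile, 129 and 285 with the length trend removed, and 0 of each with only these groups. Leaving out 1 mouse moved the all-gene count by over 1.5 times for duloxetine averaged (down without 2_1, 2_3, 3_1, 5_3, 5_4, 6_1, 6_3, 9_1, 11_3 or 12_2, up without 12_4) and for both against *R. flavefaciens* (down without 9_1, 9_3, 11_3, 12_2 or 12_3, up without 8_4). The count moved that far as well for both against controls (down without any of 8 mice, up without any of 4) and for *R. flavefaciens* against controls (down for 8, up for 3). The same held for *R. flavefaciens* averaged (down for 4, up for 4) and, from 0, for both against duloxetine (up for 3). The cause of these differences was not tested. No paired analysis was possible because the numbers of the mice are not shared between groups; with the first number as a random block, no call of a receptor changed, while the all-gene counts rose to 221 for *R. flavefaciens* against controls, 59 for both against controls, 533 for both against *R. flavefaciens* and 255 for duloxetine averaged. Adra2a and Adra1a, the lowest receptors per length, had the fewest counts behind their values.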
